A study of Mus musculus with 6 samples.

Results

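The 10 genes described here encode regulators of transcription that set the fate of T cells: Tcf7, Lef1, Bach2, Id3, Id2, Tox, Eomes, Tbx21, Prdm1 and Batf. They were chosen by symbol and are 10 of the 32285 genes listed in each library. Their unique molecular identifiers (UMIs, the counted RNA molecules) were summed per library over CD8 T, CD4 T, regulatory T (Treg), gamma-delta T and NK cells, which were gated cell by cell on marker genes. All 10 genes were listed and had UMIs in these cells, though Id3 had few.

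T cells that stay naive, become memory cells or keep a stem-like reserve under lasting stimulation express TCF1, the product of Tcf7, with its relative LEF1 and the repressor BACH2. Cells that become effectors, or that lose function under lasting stimulation, turn these genes down and rely on the T-box factors T-bet (Tbx21) and EOMES, the AP-1 family factor BATF and the repressor BLIMP1 (Prdm1), while the nuclear protein TOX is known for its part in exhausted T cells and in follicular helper CD4 T cells. ID2 and ID3 bind no DNA and block the E proteins, and ID2 is known for its role in NK cells and effector CD8 T cells. HAVCR2 (TIM-3), used below to divide the CD8 T cells, is an inhibitory receptor that accumulates on T cells under lasting stimulation.

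The study profiled cells of orthotopic ovarian tumors in C57BL/6 mice by droplet single cell RNA-seq, with 1 mouse and 1 library for each of 6 treatments. According to the methods, the females were 6 to 8 weeks old when KPCA cells, a mouse line of high-grade serous ovarian cancer with altered Trp53 and overexpressed Ccne1 and Akt2 among its changes, were placed in the ovarian bursa, and tumors were taken on day 30. The groups were control, 2DG (2-Deoxy-D-glucose, a glucose analog used here against branched N-glycans, 500 mg/kg), 2FF (2F-Peracetyl-Fucose, an inhibitor of fucosylation, with the tumor cells also pretreated at 300 µM), anti-PD-L1 antibody (5 mg/kg), and the antibody given with either 2DG or 2FF. Values for single libraries are given below in this order, with the 2DG combination before the 2FF combination. All 6 mice carried the same tumor line, and the controls received none of these agents. By the methods, control animals were given solvent and control rat IgG. GEO's labels name the tissue as lymph node and the design text speaks of young and aged animals, which the methods do not, and this was not resolved. Cells that met the gates for B cells numbered 50 to 368 per library, against 910 to 1333 for macrophages and 172 to 2351 for granulocytes. Keratin-positive cells, gated on Krt8 and Krt18, numbered 2 to 27 per library. The tissue was not inferred from these counts. Each treatment had 1 mouse, so treatments were compared without a test, and an additive fit of inhibitor and antibody over the 6 libraries was not run. Differences between cell classes were tested over the 6 libraries, where every mouse gave both classes.

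Of 12925 gated cells, 7679 were CD8 T, 2335 CD4 T, 1223 Treg, 164 gamma-delta T and 1524 NK cells. The control library held few of them, with 119 CD8 T, 129 CD4 T, 77 Treg, 12 gamma-delta T and 26 NK cells, while the other libraries held 1079 to 1950 CD8 T cells. Summed UMIs per class and library ran from 64622 to 13221938, and median UMIs per cell from 4289.5 to 7932. Levels are given as CPM (a gene's UMIs scaled to the total UMIs of its class in that library), and markers were compared by median over the libraries. Trbc2 was high in the T cell classes. Trac was high in CD8 T, CD4 T and Treg cells (448 to 512 CPM) and lower in gamma-delta T cells (64.2 CPM). Il2ra, Ctla4 and Ikzf2 were highest in Treg cells, Il17a in gamma-delta T cells, and Gzma, Klra4 and Klra8 in NK cells. Over the libraries, CD4 T cells held Ikzf2 at 420 to 1668 CPM and Il2ra at 114 to 350 CPM. Treg cells held them at 4607 to 5260 and 946 to 1541 CPM. Whether the CD4 T class included Treg cells without a detected Foxp3 UMI was not tested. Nkg7 and Gzmk were highest in CD8 T cells, but Ccl5 was highest in NK cells (7459 CPM, against 6532 in CD8 T cells). Cd40lg and Cd28 were highest in CD4 T cells, but Icos was highest in Treg cells (790 CPM, against 519 in CD4 T cells). Markers of other lineages, 13 genes outside the gates, summed to 200 to 644 CPM in CD8 T and 302 to 659 in CD4 T cells. They summed to 473 to 1481 CPM in Treg, 121 to 408 in gamma-delta T and 172 to 572 in NK cells. Each pair of libraries shared 16 to 34 cell barcodes.

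The genes lie on mm10 at chromosome 11, 52252371 to 52283014 for Tcf7, chromosome 3, 131110471 to 131224356 for Lef1, chromosome 4, 32238804 to 32586108 for Bach2, chromosome 4, 6686353 to 6991557 for Tox, chromosome 9, 118478212 to 118486132 for Eomes, chromosome 11, 97098071 to 97115331 for Tbx21, chromosome 12, 25093799 to 25097140 for Id2, chromosome 4, 136143497 to 136145755 for Id3, chromosome 10, 44437177 to 44528501 for Prdm1 and chromosome 12, 85686669 to 85709087 for Batf. All are annotated as protein coding.

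Tcf7, Lef1 and Bach2 moved together in several comparisons below, so a promoter window of each is shown, taken from RefSeq (build GRCm38.p6, which is mm10) as the 250 bases before and 50 after an annotated start. RefSeq had 13 such windows for 9 of the 10 members. Capitals mark matches on either strand to CTTTGA, the core that TCF1 and LEF1 bind, or to CAGGTG, an E-box that E proteins bind. All of these windows lie inside the GENCODE span of their gene, and they were chosen because each holds a match.
Lef1, chr3:131156044-131156343, plus strand, CTTTGA: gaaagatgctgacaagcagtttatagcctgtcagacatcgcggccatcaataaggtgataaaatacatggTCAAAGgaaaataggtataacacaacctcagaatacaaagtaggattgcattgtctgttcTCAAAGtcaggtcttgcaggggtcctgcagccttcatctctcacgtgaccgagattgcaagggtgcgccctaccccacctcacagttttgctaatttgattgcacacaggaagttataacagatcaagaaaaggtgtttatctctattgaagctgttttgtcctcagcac
Bach2, chr4:32417185-32417484, plus strand, CTTTGA: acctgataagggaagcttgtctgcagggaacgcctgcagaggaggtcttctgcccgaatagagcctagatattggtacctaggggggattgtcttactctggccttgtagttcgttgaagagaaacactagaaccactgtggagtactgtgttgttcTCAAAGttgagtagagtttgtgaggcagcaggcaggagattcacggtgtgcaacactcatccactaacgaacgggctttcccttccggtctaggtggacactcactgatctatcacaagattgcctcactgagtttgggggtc
Tcf7, chr11:52282546-52282845, minus strand, CAGGTG: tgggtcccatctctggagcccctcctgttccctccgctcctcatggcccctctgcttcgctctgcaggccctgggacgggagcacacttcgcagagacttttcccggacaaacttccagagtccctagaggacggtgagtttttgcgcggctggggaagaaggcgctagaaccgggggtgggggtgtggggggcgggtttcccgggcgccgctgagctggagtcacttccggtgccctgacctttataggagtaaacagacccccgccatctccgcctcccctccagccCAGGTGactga
The Lef1 window held 2 matches to CTTTGA and the Bach2 window 1, each as its reverse complement. The other Lef1 windows held no CTTTGA, and those starting at 131110047 and 131110073 overlap with each other. Over the 13 member windows, 2 held CTTTGA (15.4%), against 16.0% of all 32851 RefSeq windows of this length, and 4 held CAGGTG (30.8%), against 20.2%. TGANTCA, which AP-1 proteins such as BATF bind, was found in 1 window, that of Prdm1 (7.69%, against 7.81% of all), and GGTGTGA, a T-box core, in none, against 3.98%. No pair of these motifs overlapped in the 3 windows shown. A match describes these letters and is no evidence of binding.

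Tcf7, Lef1 and Bach2 had their highest medians in gamma-delta T cells. Tcf7 was lowest in Treg cells, at 2.88 to 11.8 CPM over the 6 libraries (median 7.60), lay at 30.5 to 78.4 CPM in CD8 T cells (median 35.8), 34.9 to 49.6 in CD4 T cells and 34.0 to 64.0 in NK cells (median 54.5), and was highest in gamma-delta T cells, at 92.8 to 192 CPM (median 155). The libraries of CD8 T, CD4 T and NK cells overlapped with one another, whereas those of Treg and gamma-delta T cells overlapped with no other class. Bach2 was high in 2 classes, with 480 to 1019 CPM in gamma-delta T cells and 562 to 791 in NK cells, against 166 to 328 in CD8 T, 217 to 359 in CD4 T and 83.4 to 152 in Treg cells. Lef1 was highest in gamma-delta T cells, at 387 to 528 CPM, and lay at 81.7 to 278 CPM in the other 4 classes, which overlapped. Id3 stood at or near 0 everywhere, with 236 UMIs over all 12925 cells and 13.5 CPM at most in any class of any library.

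**Figure D1:**
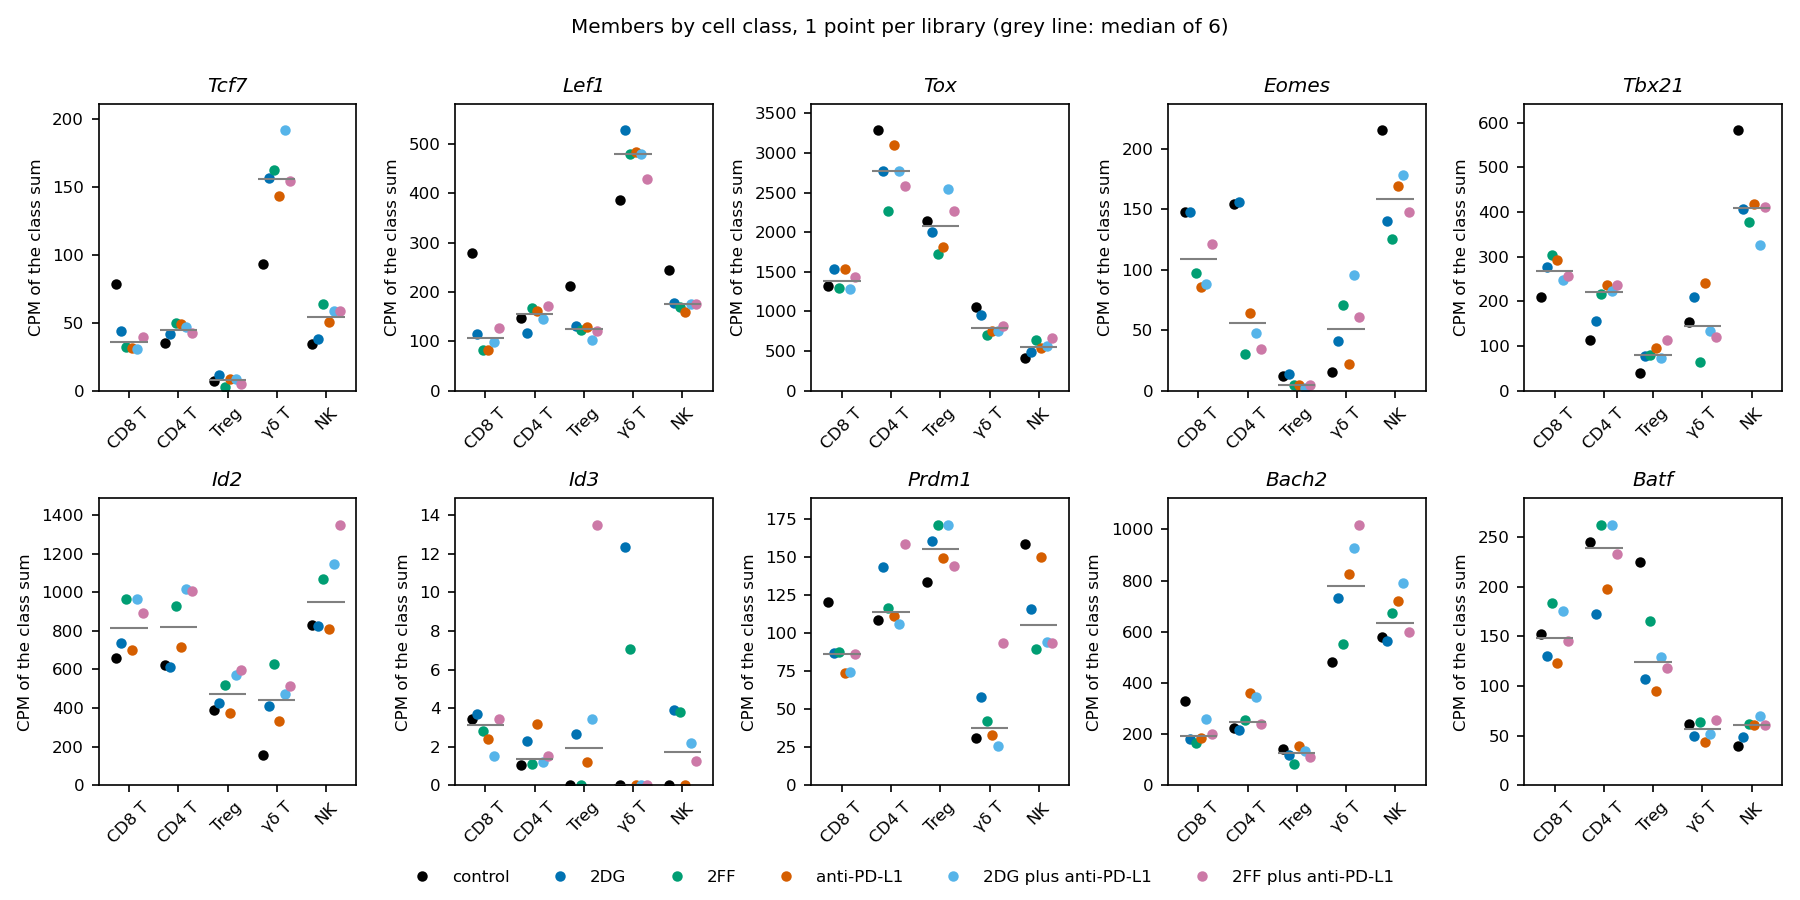
Each panel plots 1 of the 10 genes, with the 5 cell classes on the horizontal axis and CPM of the class sum on a linear vertical axis that starts at 0 and differs between panels. Points are single libraries colored by treatment and grey lines are medians of the 6 libraries. Tcf7, Lef1 and Bach2 have their highest medians in gamma-delta T cells, and Eomes, Tbx21 and Id2 in NK cells. Tox stands highest in CD4 T and Treg cells.

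Among the genes of effector and exhausted cells, Tox was highest in CD4 T cells, at 2263 to 3288 CPM, followed by Treg cells at 1721 to 2542, CD8 T cells at 1282 to 1541, gamma-delta T cells at 699 to 1052 and NK cells at 408 to 661. The CD4 T and Treg ranges overlapped, CD8 T cells overlapped with no other class, and the 2 lowest classes were apart. Eomes had its highest median in NK cells (158 CPM) and its lowest in Treg cells (4.84 CPM), and Tbx21 likewise ran from 409 CPM in NK cells to 78.8 in Treg cells. Id2 lay at 810 to 1350 CPM in NK cells and at 374 to 599 in Treg cells, without overlap. Prdm1 had its highest median in Treg cells (155 CPM) and its lowest in gamma-delta T cells (37.7 CPM). Batf had its highest median in CD4 T cells, which lay at 173 to 263 CPM, and was lowest in gamma-delta T and NK cells, at 39.7 to 70.2 CPM over both.

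Levels in cells that should lack the gene were lower for some members and classes and overlapped for others. A Tcf7 UMI was found in 9.90% to 16.2% of CD8 T cells at median depths of 5871.5 to 7932 UMIs, and in 0.632% to 1.32% of macrophages at 9655.5 to 13181 UMIs. It was also found in 14.3% to 33.3% of keratin-positive cells, in the 3 libraries with at least 10 of them. Their median depths were 7802 to 30794 UMIs. Their Tcf7, at 15.4 to 27.8 CPM, lay below that of CD8 T cells and above that of Treg cells. Macrophages held at most 2.27 CPM of Lef1, 1.26 of Eomes and 16.0 of Tox, and a Tbx21 UMI was found in at most 2.75% of them. B cells held up to 6.01 CPM of Tcf7 and 4.30 of Eomes, which overlapped with the levels of both genes in Treg cells. Id2, Prdm1, Bach2 and Batf were also expressed outside the T and NK classes, with 231 to 351 CPM of Id2, 32.7 to 90.4 of Prdm1 and 185 to 209 of Bach2 in macrophages, and Bach2 reached 1786 to 2474 CPM in B cells. The 0.951% to 2.52% of CD8 T cells with an Id3 UMI lay below the 4.26% to 12.1% of macrophages. Macrophages and B cells held Id3 UMIs in every library, so they set no background level for this gene. Id3 also differed between parts of the CD8 T cells divided by Havcr2 or Tcf7, as given below. Whether the shares in CD8 T cells were background was not tested.

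CD8 T and CD4 T cells differed in the T-box factors on the side of CD8 T cells and in Tox, Batf and Prdm1 on the side of CD4 T cells. Of 9 members tested (Id3 fell under the filter on low counts), 2 were higher and 3 lower in CD8 T cells, against 13.9% and 15% of all 10778 genes counted, by edgeR's quasi-likelihood test with the library as a block and a Benjamini-Hochberg adjusted p under 0.05. Tox was lower in CD8 T cells by 0.95 ± 0.06 on the log2 scale (SE, adjusted p = 4.93e-07) and Batf by 0.56 ± 0.05 (adjusted p = 1.60e-05), each in 6 of 6 libraries. Prdm1 was lower with a log2 fold change of -0.52 ± 0.10 (adjusted p = 0.00170), in 5 of 6 libraries. Tbx21, whose product drives interferon-gamma production, was higher in CD8 T cells by 0.45 ± 0.10 (adjusted p = 0.00512), in 6 of 6 libraries, though without the library block its adjusted p was 0.0651. Eomes was higher by 0.75 ± 0.22 (adjusted p = 0.0273) in 4 of 6 libraries, and this call was lost without 2FF (adjusted p = 0.0797), without 2DG plus anti-PD-L1 (adjusted p = 0.0732) or without 2FF plus anti-PD-L1 (adjusted p = 0.0741), by DESeq2 (adjusted p = 0.0646) and without the library block (adjusted p = 0.320), so that it held under 11 of 16 alternatives. Tcf7 (-0.22 ± 0.17), Lef1 (-0.39 ± 0.19), Bach2 (-0.34 ± 0.14) and Id2 (0.05 ± 0.06) were not called. Lef1 and Bach2 passed the test as lower in CD8 T cells when the control library was left out, at -0.56 (adjusted p = 0.00791) and -0.47 (adjusted p = 0.00403), and also without the filter on low counts and after thinning every cell to 1000 UMIs.

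Treg cells had less of most members than CD4 T cells without Foxp3. Of 9 members tested, 7 were lower and 1 higher in Treg cells, against 13.5% and 14.9% of all 9917 genes, and the members' median log2 fold change was -0.77, against -0.02 over all genes. Eomes was lower by 3.49 ± 0.15 on the log2 scale (adjusted p = 1.09e-09), an 11.2-fold difference, and Tcf7 by 2.48 ± 0.20 (adjusted p = 3.33e-07), a 5.58-fold difference. After thinning, Eomes gave no test result. Tcf7 in CD4 T cells was 34.9, 41.7, 49.6, 49.4, 47.2 and 42.7 CPM from control to the 2FF combination, against 6.86, 11.8, 2.88, 8.35, 8.62 and 4.92 CPM in Treg cells of the same mice. The 2 classes did not overlap, and the same held for Eomes, at 30.3 to 156 against 2.59 to 13.7 CPM, and the Treg levels of both genes overlapped with those of B cells. Tbx21, Bach2, Batf, Id2 and Tox were also lower, by 1.28, 1.14, 0.77, 0.76 and 0.43, each in 6 of 6 libraries (largest adjusted p = 3.61e-04, for Tox). Lef1 was not called (-0.19 ± 0.13), so the relatives Tcf7 and Lef1 had different outcomes, although the difference between them was not tested. Prdm1, whose product is known to support interleukin-10 production by Treg cells, was higher by 0.32 ± 0.10 (adjusted p = 0.0291), a call lost without 2FF (adjusted p = 0.0761), anti-PD-L1 (adjusted p = 0.0727) or 2DG plus anti-PD-L1 (adjusted p = 0.111), without the library block (adjusted p = 0.0620), by DESeq2 (adjusted p = 0.0638) and after thinning (adjusted p = 0.169), so that it held under 10 of 16 alternatives. Markers of other lineages summed higher in Treg cells, at 473 to 1481 against 302 to 659 CPM, and their part in these differences was not tested.

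Gamma-delta T cells had more of the memory-linked regulators Tcf7, Lef1 and Bach2 than CD8 T cells. They were not tested against NK cells, whose Bach2 levels overlapped with theirs. Against CD8 T cells, 3 of 9 members tested were higher and 6 lower, against 11.1% and 9.27% of all 6514 genes. Lef1 was higher by 2.07 ± 0.19 on the log2 scale (adjusted p = 1.04e-08), Tcf7 by 2.03 ± 0.23 (adjusted p = 3.52e-07) and Bach2 by 1.89 ± 0.16 (adjusted p = 4.15e-09), each in 6 of 6 libraries. Batf was lower by 1.39 ± 0.20 (adjusted p = 9.40e-06), followed by Id2 at -0.92 ± 0.14, Tbx21 at -0.78 ± 0.19 and Tox at -0.72 ± 0.11, in 6 of 6 libraries each. Eomes was lower by 0.99 ± 0.27 (adjusted p = 0.00939) in 5 of 6 libraries, with an adjusted p of 0.0820 without 2DG. The lower Prdm1 (-0.72 ± 0.25, adjusted p = 0.0462) was called under 7 of 16 alternatives, and not without 2DG (adjusted p = 0.0787), 2FF (adjusted p = 0.106), anti-PD-L1 (adjusted p = 0.0923) or 2DG plus anti-PD-L1 (adjusted p = 0.143). This class rested on 12 to 42 cells per library. After thinning to 1000 UMIs, Tcf7, Eomes and Prdm1 gave no test result, and 6 members were called in place of 9.

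NK cells had less Tox and Batf than CD8 T cells and more of 7 other members, with Id3 not tested. Of 9 tested, 7 were higher and 2 lower, against 24.8% and 25% of all 9652 genes. Bach2 was higher by 1.75 ± 0.11 on the log2 scale (adjusted p = 3.55e-09), a 3.36-fold difference, at 562 to 791 CPM in NK and 166 to 328 CPM in CD8 T cells. Tox was lower by 1.26 ± 0.09 (adjusted p = 1.29e-08) and Batf by 1.24 ± 0.09 (adjusted p = 2.04e-08), with no overlap between the classes in either gene. Lef1, Tbx21, Eomes, Tcf7, Prdm1 and Id2 were higher by 0.78, 0.68, 0.62, 0.61, 0.50 and 0.37 (largest adjusted p = 0.00735, for Tcf7). Lef1 and Eomes were each higher in NK cells in 5 of 6 libraries. The difference in Tcf7 turned in 2 libraries, the control and 2DG. Its call was lost without 2DG plus anti-PD-L1 (adjusted p = 0.0514), by DESeq2 (adjusted p = 0.0770) and after thinning (adjusted p = 0.0965).

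**Figure D2:**
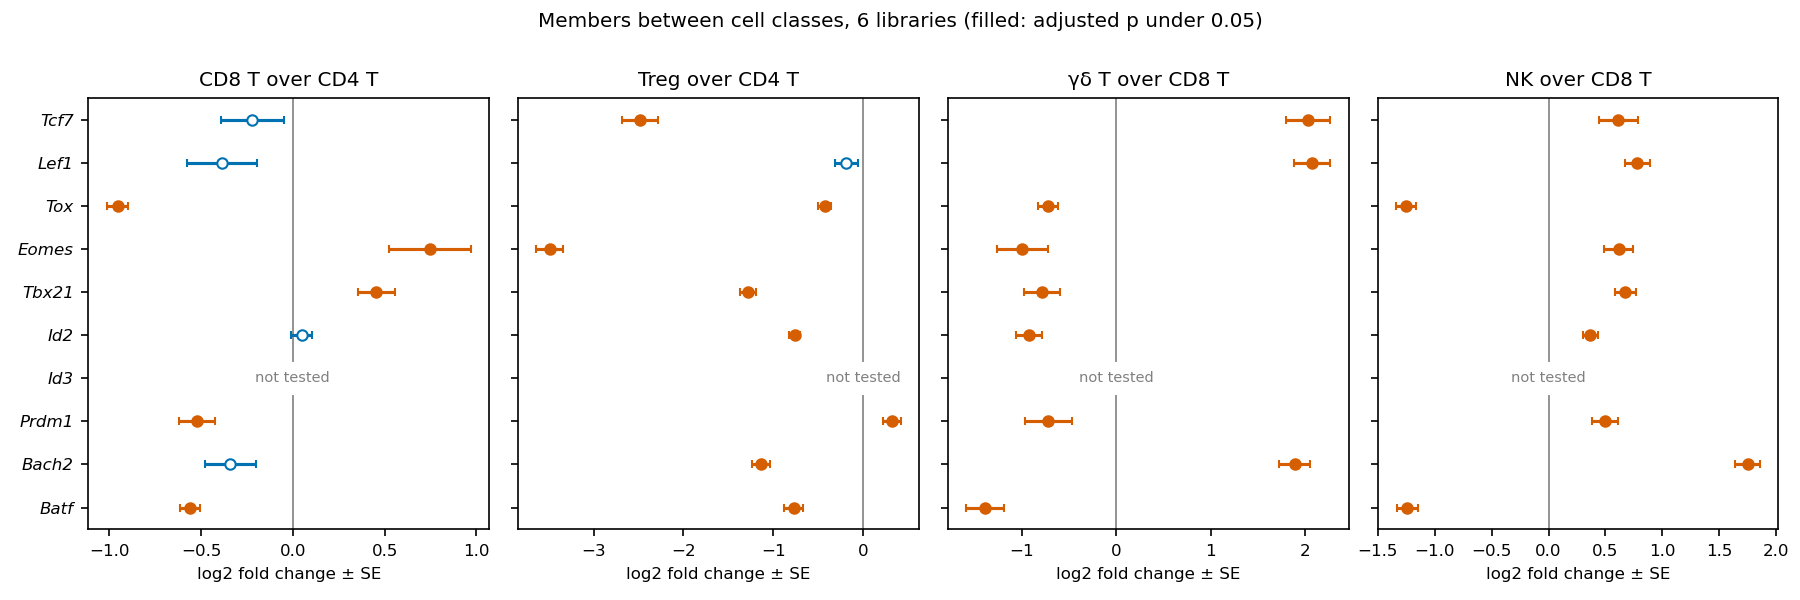
Each panel plots 1 comparison of cell classes, with the 10 genes on the vertical axis and the log2 fold change with its standard error on a horizontal axis that differs between panels. Filled points passed an adjusted p under 0.05 over 6 libraries, open points did not, and Id3 was not tested. Tcf7 and Eomes lie far to the left in Treg against CD4 T cells, and Tcf7, Lef1 and Bach2 to the right in gamma-delta T against CD8 T cells.

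Within CD8 T cells, the 4136 cells with a Havcr2 UMI were low in the memory-linked regulators beside the 3543 without one. Of 10 members tested, 3 were higher and 5 lower in cells with Havcr2, against 13.7% and 14.4% of all 10998 genes. Tcf7 was lower by 3.58 ± 0.17 on the log2 scale (adjusted p = 2.18e-09), the largest difference among the members. In cells without Havcr2 it stood at 206, 85.5, 82.2, 70.3, 68.3 and 87.0 CPM in the 6 libraries, from control to the 2FF combination. In cells with Havcr2 it stood at 0, 5.46, 5.13, 6.75, 7.64 and 10.4 CPM, so that the parts did not overlap in any library, and the control value rests on 0 UMIs of 545040, with an upper 95% limit of 6.77 CPM. Bach2 was lower by 1.77 ± 0.10 (adjusted p = 1.37e-08) and Lef1 by 1.66 ± 0.11 (adjusted p = 3.44e-08), each in 6 of 6 libraries. Counts of Id3 were lower as well (-1.70 ± 0.27, adjusted p = 2.97e-04), at 0 to 2.01 CPM with Havcr2 and 3.05 to 8.96 CPM without, which lies below or within the 5.73 to 28.1 CPM of macrophages. Prdm1 was higher by 0.66 ± 0.07 (adjusted p = 9.55e-06), Id2 by 0.46 ± 0.04 (adjusted p = 1.94e-06) and Batf by 0.39 ± 0.05 (adjusted p = 8.42e-05), also in 6 of 6 libraries.

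Tox and Tbx21 did not pass the test between these parts, with log2 fold changes of -0.06 ± 0.06 and -0.01 ± 0.06. Tox stood at 1248 to 1541 CPM in cells with Havcr2 and 1203 to 1719 CPM in cells without. Eomes was lower by 0.20 ± 0.06 (adjusted p = 0.0184), a call lost without 2DG (adjusted p = 0.0799), anti-PD-L1 (adjusted p = 0.0569), 2DG plus anti-PD-L1 (adjusted p = 0.0860) or 2FF plus anti-PD-L1 (adjusted p = 0.0867), and held under 9 of 16 alternatives, with a largest adjusted p of 0.958. Cells with a Havcr2 UMI were deeper, at median depths of 6590 to 8719 against 5014 to 7016 UMIs. Every cell was also thinned to 1000 UMIs and the division by Havcr2 made again, with the class gates left on the full counts. Then 4 members were called in place of 8. Prdm1 (adjusted p = 0.505), Batf (adjusted p = 0.205) and Eomes (adjusted p = 0.958) were not called, and Id3 gave no test result.

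CD8 T cells were also divided by Tcf7 itself, into 935 cells with a Tcf7 UMI and 6744 without, and those with Tcf7 had more Lef1 and Bach2 and less Prdm1, Id2, Tox, Batf and Tbx21. Tcf7 set the division and was not tested. Of the other 8 members tested, 2 were higher and 5 lower in cells with Tcf7, against 15.2% and 13.6% of all 8829 genes. Lef1 was higher by 2.20 ± 0.13 on the log2 scale (adjusted p = 5.83e-09), at 987, 304, 331, 198, 291 and 392 CPM against 123, 78.9, 54.0, 68.8, 76.6 and 81.0 CPM in the order of libraries above. Bach2 was higher by 2.17 ± 0.14 (adjusted p = 1.05e-08), at 480 to 1323 against 111 to 192 CPM. For both genes, every library of cells with Tcf7 lay above every library without. Prdm1 was lower by 1.66 ± 0.15 (adjusted p = 4.12e-07), Id2 by 1.11 ± 0.06 (adjusted p = 1.98e-09), Tox by 0.76 ± 0.09 (adjusted p = 1.10e-05), Batf by 0.71 ± 0.09 (adjusted p = 2.26e-05) and Tbx21 by 0.58 ± 0.11 (adjusted p = 5.73e-04), each in 6 of 6 libraries. Tox remained at 595 to 1286 CPM in cells with Tcf7. Eomes was not called (-0.20 ± 0.12). Id3 was under the filter, at 4.96 to 19.0 CPM in cells with Tcf7 and 0 to 1.81 CPM in those without. A cell without a Tcf7 UMI may still hold its RNA at these depths, which were 5489 to 8301 UMIs with Tcf7 and 5881 to 8028.5 without, and after thinning Tbx21 (adjusted p = 0.252) and Batf (adjusted p = 0.592) were not called.

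CD8 T cells with a UMI of Mki67 or Top2a, genes of dividing cells, had less of the memory-linked regulators than the rest. They numbered 3344, against 4335 without, and 6 of 10 members tested were lower and 0 higher, against 19.4% and 16.5% of all 11308 genes. The count of members higher by edgeR was also 0 at an unadjusted p under 0.05 and 0 by DESeq2. Tcf7 was lower by 1.15 ± 0.07 on the log2 scale (adjusted p = 7.78e-10), Bach2 by 0.97 ± 0.05 (adjusted p = 8.12e-11) and Lef1 by 0.82 ± 0.06 (adjusted p = 4.11e-09), each in 6 of 6 libraries. The smaller differences were -0.39 ± 0.05 for Tbx21, -0.19 ± 0.05 for Tox and -0.14 ± 0.03 for Id2, and that of Id2 was not called without 2FF (adjusted p = 0.0539) or, like that of Tox (adjusted p = 0.173), without the library block (adjusted p = 0.569). Eomes, Id3, Prdm1 and Batf were not called. Dividing cells were deeper (6877 to 8968 against 5335 to 7106 UMIs), and after thinning 3 members were called in place of 6, with Tcf7 (-0.47, adjusted p = 0.235), Tox and Id2 lost.

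**Figure D3:**
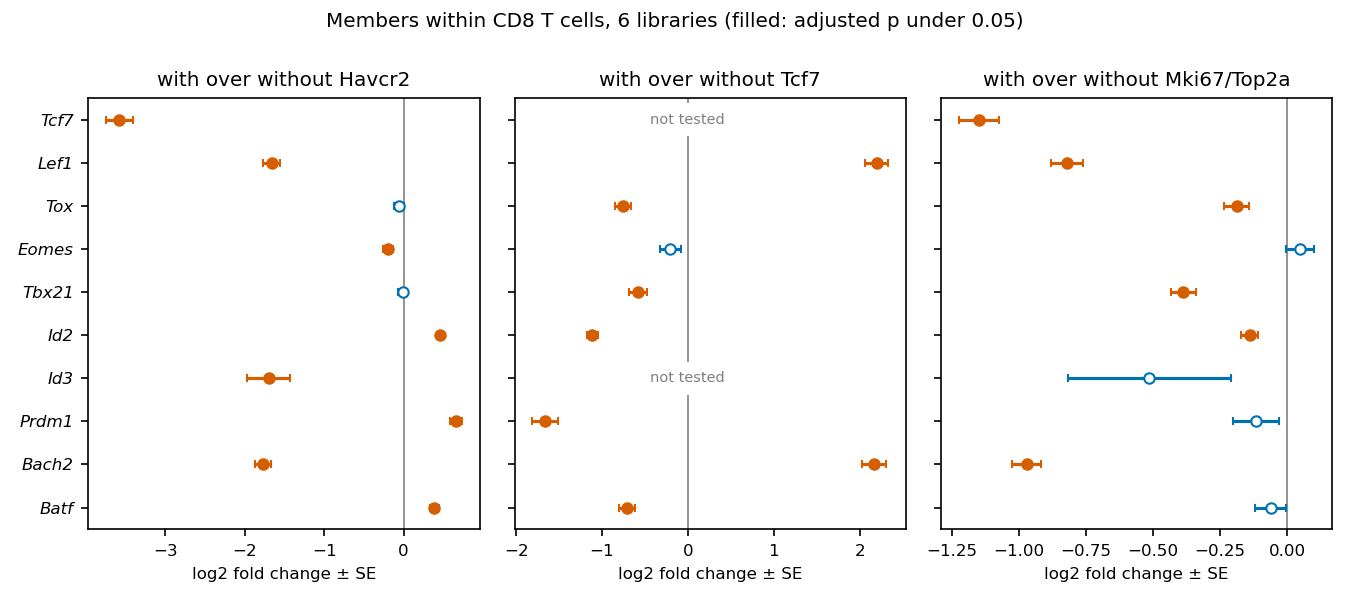
Each panel plots 1 division of the CD8 T cells by detected UMIs, with the 10 genes on the vertical axis and the log2 fold change with its standard error on a horizontal axis that differs between panels. Filled points passed an adjusted p under 0.05 over 6 libraries and open points did not. Tcf7 and Id3 were not tested in the division by Tcf7. Tcf7, Lef1 and Bach2 lie to the left in cells with Havcr2 and in dividing cells, and Lef1 and Bach2 to the right in cells with Tcf7.

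Other genes of these programs gave counts of the same kind. Of 10 genes linked to naive and memory cells, 9 were lower and 1 higher in CD8 T cells with Havcr2, with a median log2 fold change of -1.54, where 14.4% of all genes were lower and 13.7% higher. S1pr1 (-2.45) and Slamf6 (-2.15), which guide egress and contact between lymphocytes, were among those lower, and Cd27 was the gene that was higher (0.40). Of 11 genes linked to effector and exhausted cells, leaving out Havcr2, and against the same shares, 8 were higher and 3 not called, with Gzmb (1.70), Prf1 (1.67), Entpd1 (1.04) and Lag3 (0.99) at the top. For the division by Tcf7, 8 of 9 memory-linked genes were higher and Cd27 was lower (-0.68), while 11 of 12 effector-linked genes were lower, with Klrg1 (-0.52) not called, where 15.2% of all genes were higher and 13.6% lower. Among 29 other transcription factors tested in CD8 T cells with Tcf7, 13 were higher and 7 lower, including Batf3 (1.77), Myb (1.34) and Satb1 (1.05) on the higher side and Tox2 (-1.05) and Irf8 (-0.92) on the lower side. Against CD4 T cells, Treg cells had more Ikzf2 (2.57) and Myb (1.95) and less Runx3 (-1.89) and Nr4a2 (-1.58). Against CD8 T cells, NK cells had more Irf8 (3.41) and Myb (1.97) and less Tox2 (-5.21) and Bcl11b (-4.08), a factor of T cell identity. These lists were not tested as sets.

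Between classes, the memory-linked list had 2 genes higher and 6 lower of 10 in CD8 T against CD4 T cells, 5 and 3 of 10 in Treg against CD4 T cells, 5 and 2 of 9 in gamma-delta T against CD8 T cells and 3 and 4 of 9 in NK against CD8 T cells. Over all genes, the shares higher and lower were 13.9% and 15%, 14.9% and 13.5%, 11.1% and 9.27%, and 24.8% and 25% in these comparisons, and they serve for the other lists too. The effector-linked list had 5 higher and 3 lower of 12, 3 and 7 of 12, 0 and 9 of 11, and 5 and 6 of 12 in the same order. In gamma-delta T cells S1pr1 (2.59), Klf2 (2.45), which controls egress, and Il7r (2.24), a survival receptor, were higher beside Tcf7 and Lef1, and Lag3 (-3.40) and Havcr2 (-3.12) were lower. The other transcription factors had 8 higher and 12 lower of 29, 12 and 8 of 28, 11 and 6 of 27, and 17 and 7 of 28. Maf, a factor of helper T cells, was lower in CD8 T than CD4 T cells (-4.32) and higher in gamma-delta T than CD8 T cells (2.76). In dividing CD8 T cells, 7 of 10 memory-linked genes, 5 of 12 effector-linked genes and 20 of 29 other factors were lower, against 19.4% of all genes, while Myb, known for its part in proliferating progenitors, was higher (1.09).

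The treatments were compared as log2 ratios of CPM + 5 between single libraries, for genes with at least 50 UMIs over both, and a gene was counted where the ratio passed 1.5-fold in either direction. 2DG, 2FF and anti-PD-L1 were each set against the same control library, and each combination against the same anti-PD-L1 library, so these comparisons share samples. The ratios printed below, other than log2 ratios, are plain ratios of CPM with no added 5. At the 1.5-fold limit the scales differed for 4 pairs of member and class, which were past it in plain CPM and are not counted: Lef1 in CD8 T cells with 2FF added to anti-PD-L1 (1.53), Eomes in CD8 T cells with 2FF over control (0.657), Bach2 in CD4 T cells with 2FF added to anti-PD-L1 (0.665) and Batf in NK cells with anti-PD-L1 over control (1.54). Intervals are exact conditional binomial 95% intervals, which cover counting error only and not the difference between mice. They treat each UMI as an independent draw, so the sampling of cells is not covered either.

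In CD8 T cells the control library stood above the 5 treated ones in Tcf7, Lef1 and Bach2. Lef1 was 278, 115, 81.7, 82.4, 99.5 and 126 CPM in the 6 libraries, from control to the 2FF combination. Tcf7 was 78.4, 44.1, 32.2, 31.1, 30.5 and 39.4 CPM, and Bach2 328, 180, 166, 184, 258 and 201 CPM, in the same order. The ratio to control for Lef1 was 0.413 with 2DG (interval 0.359 to 0.477), 0.293 with 2FF (0.255 to 0.338) and 0.296 with anti-PD-L1 (0.257 to 0.342). For Tcf7 these ratios were 0.563 (0.435 to 0.737), 0.411 (0.318 to 0.538) and 0.397 (0.306 to 0.522). With anti-PD-L1, Eomes (0.582) and Prdm1 (0.611) were past 1.5-fold as well. In all, 3 of 9 members were past 1.5-fold with 2DG, 3 with 2FF and 5 with anti-PD-L1, all downward, against 11.4%, 14.5% and 14.2% of all genes compared. Adding 2DG or 2FF to anti-PD-L1 moved 0 of 9 and 0 of 10 members past 1.5-fold on the CPM + 5 scale, against 4.06% and 2.41% of all genes.

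The higher levels of the control library lay in the CD8 T cells without Havcr2. There Lef1 was 600 CPM in the control and 132 to 209 CPM in the treated libraries, and Bach2 was 720 CPM against 274 to 455 CPM, with 57 cells in the control. In cells with Havcr2, Bach2 was 88.1 CPM in the control and 91.3 to 138 CPM in the treated libraries, and Lef1 was 80.7 against 49.3 to 75.6 CPM, where the control interval of 58.7 to 108 CPM overlapped with those of 2DG and of the 2FF combination, and not with those of 2FF or anti-PD-L1 alone or of the 2DG combination. Cells with Havcr2 made up 52.1% of CD8 T cells in the control and 43.6% to 58.1% in the treated libraries. The share of CD8 T cells with a Tcf7 UMI did not set the control above 2DG, at 16.0% and 16.2%. In the control, 19 cells carried the 69 Tcf7 UMIs. Markers of other lineages summed to 644 CPM in control CD8 T cells and 200 to 471 in the treated ones, and their part was not tested.

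**Figure D4:**
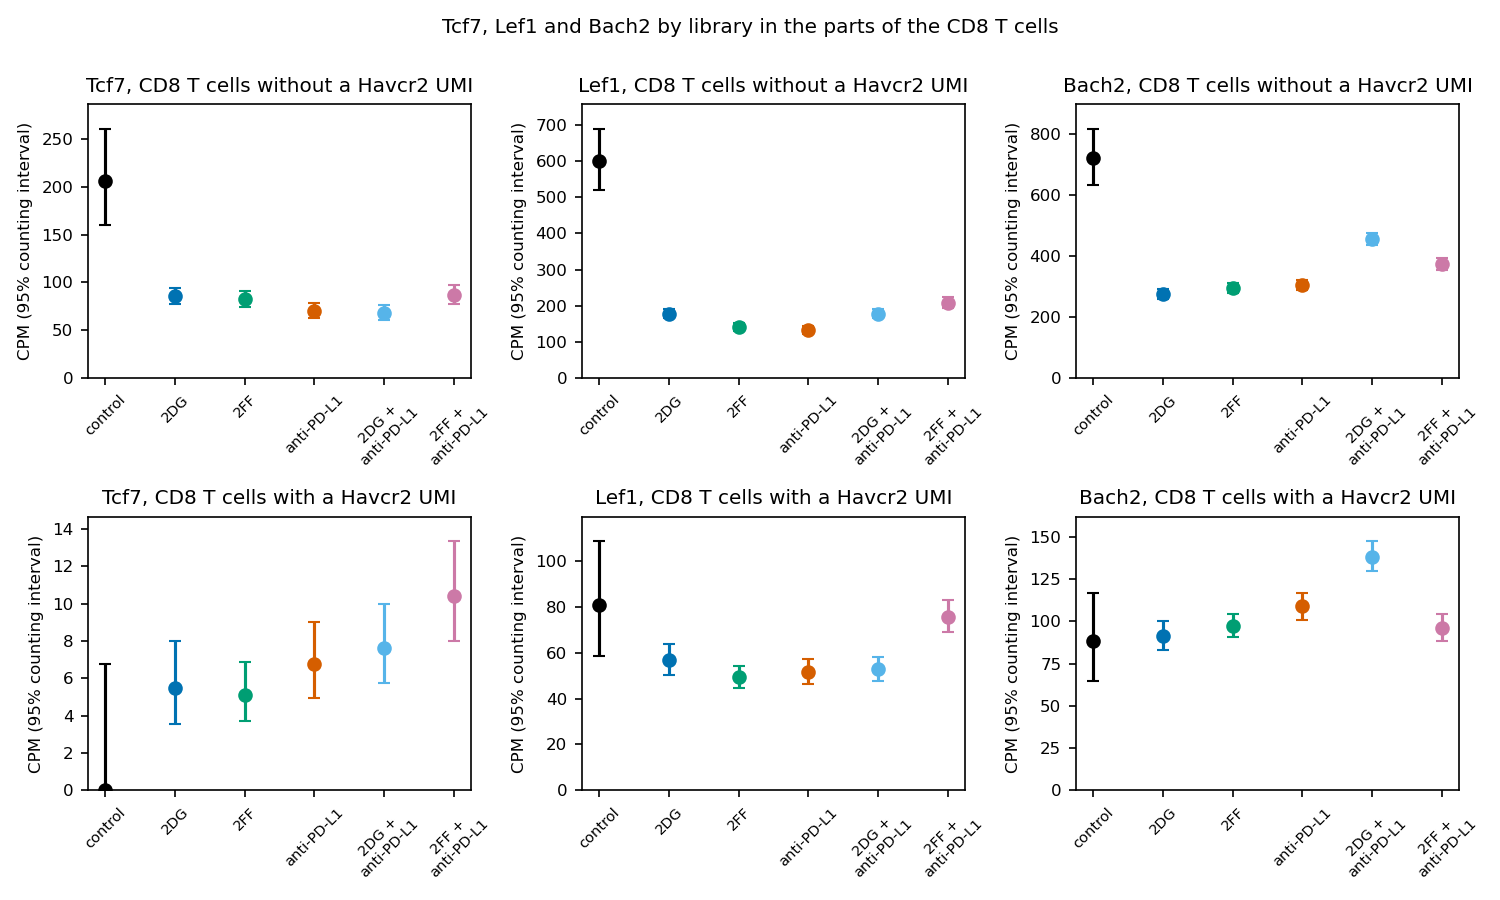
Panels plot Tcf7, Lef1 and Bach2 in CD8 T cells without a Havcr2 UMI (top) and with one (bottom), with the 6 libraries on the horizontal axis and CPM on a linear vertical axis that starts at 0 and differs between panels. Points are single libraries and bars are exact Poisson 95% intervals of the count. In cells without Havcr2 the control point lies above all 5 treated libraries for each gene, and in cells with Havcr2 it does so only for Lef1, with an interval that overlaps others.

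In CD4 T cells the T-box genes differed between libraries in opposite directions. Eomes was 155 and 156 CPM in the control and 2DG libraries and 30.3, 64.4, 47.6 and 34.4 CPM in the remaining 4, from 2FF to its combination with the antibody. Tbx21 was 113 CPM in the control, 157 with 2DG and 217 to 238 in the other 4. The ratio to control was 0.196 for Eomes with 2FF (interval 0.148 to 0.259) and 0.417 with anti-PD-L1 (0.331 to 0.525), and for Tbx21 it was 1.91 (1.55 to 2.37) and 2.09 (1.70 to 2.60). Of 9 members, 0 were past 1.5-fold with 2DG, 2 with 2FF and 3 with anti-PD-L1, where Bach2 (1.61) was the third, against 12.2%, 16.8% and 14.1% of all genes. Adding 2DG to anti-PD-L1 moved 0 of 9 (8.86% of all genes) and adding 2FF moved 1 of 9 (5.78%), which was Eomes at 0.534.

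In Treg cells Tbx21 was 39.5 CPM in the control, from 23 UMIs, and 74.2 to 114 CPM in the treated libraries, which did not overlap with it. Lef1 was 213 CPM in the control and 103 to 131 CPM in the others, and Batf 225 CPM against 95.4 to 165 CPM. Of 7 members with enough UMIs, 3 were past 1.5-fold with each of 2DG, 2FF and anti-PD-L1, against 13.6%, 21.2% and 16.9% of all genes. In the combinations against anti-PD-L1 it was 1 of 7 with 2DG (12.3% of all genes) and 1 of 7 with 2FF (7.13%), Id2 in each, at log2 ratios of 0.60 and 0.67. Markers of other lineages summed to 1217 CPM in control Treg cells and to 473 to 1481 CPM in the treated libraries.

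In NK cells 1 of 9 members was past 1.5-fold with 2DG, 6 with 2FF and 1 with anti-PD-L1, against 26.6%, 27% and 28.5% of all genes, beside 26 control cells. With 2FF, Tox and Tbx21 had ratios of 1.58 (1.23 to 2.04) and 0.648 (0.520 to 0.813). Tcf7 rested on 6 control UMIs and Batf on 7, and the intervals of both included 1. Prdm1 was 150 CPM with anti-PD-L1, 94.5 with 2DG plus anti-PD-L1 and 93.3 with 2FF plus anti-PD-L1. Id2 was 810 CPM with anti-PD-L1 and 1350 with 2FF plus anti-PD-L1, a ratio of 1.67 (1.56 to 1.79). In all, 1 of 9 members was past 1.5-fold when 2DG was added to anti-PD-L1 (11% of all genes) and 2 of 9 when 2FF was added (7.02%).

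Id2 was lower with anti-PD-L1 alone than in either combination in each of the 6 classes of cells given here. It was 699 CPM with anti-PD-L1, 966 with 2DG plus anti-PD-L1 and 892 with 2FF plus anti-PD-L1 in CD8 T cells, and 715, 1017 and 1007 CPM in CD4 T cells. In Treg cells it was 374, 568 and 599 CPM and in NK cells 810, 1148 and 1350 CPM, with the 2FF combination highest in these classes and the 2DG combination highest in the other ones. In macrophages of the same libraries it was 231, 351 and 334 CPM, and in granulocytes 152, 222 and 206 CPM. The part of a difference shared by all cells of a library was not tested.

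**Figure D5:**
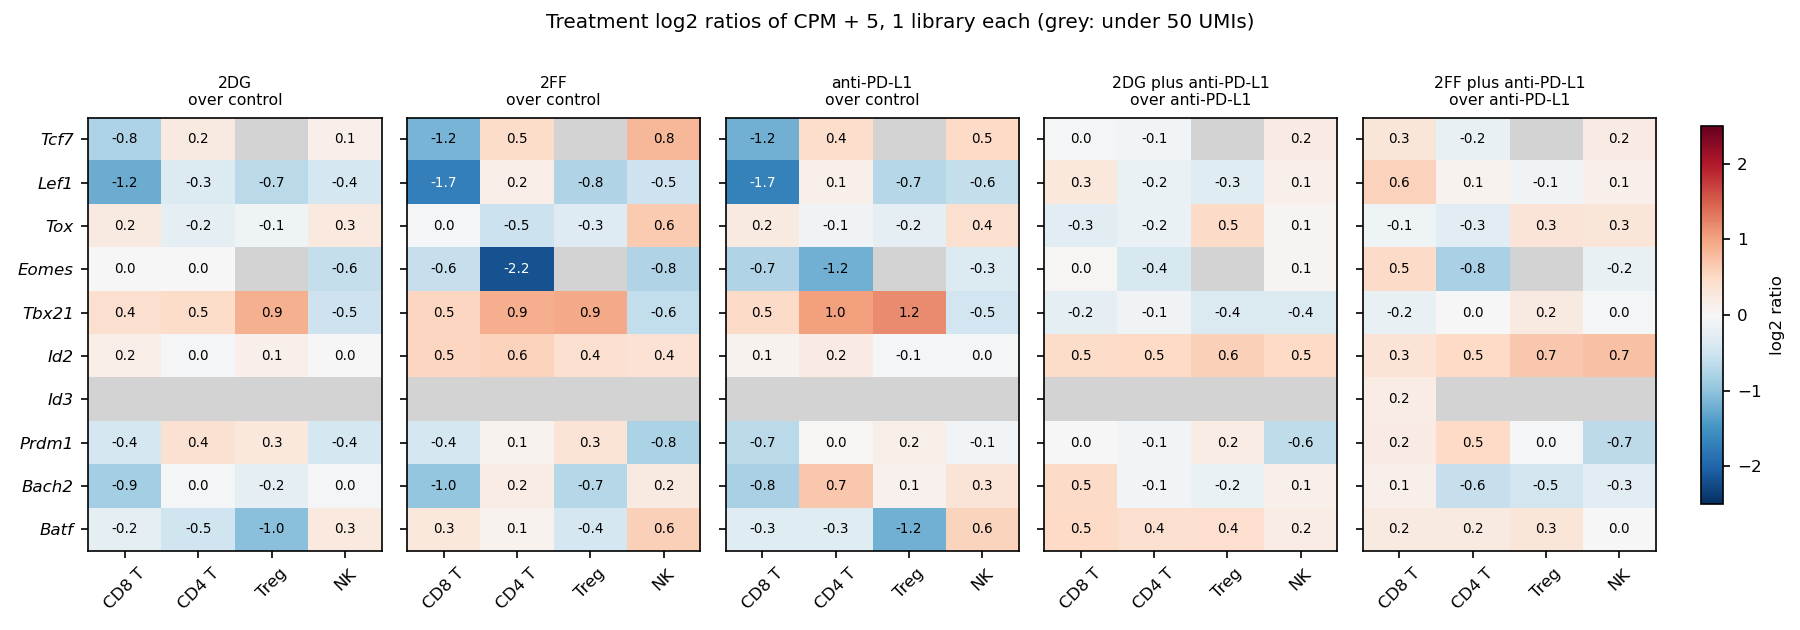
Panels plot 5 comparisons of treatments, with the 10 genes on the vertical axis and 4 cell classes on the horizontal axis, and the color and number give the log2 ratio of CPM + 5 between 2 single libraries (red higher, blue lower, grey under 50 UMIs over both). Lef1 and Tcf7 are blue in CD8 T cells with 2DG, 2FF and anti-PD-L1 over control, Eomes is blue and Tbx21 red in CD4 T cells with 2FF and anti-PD-L1, and Id2 is red in all 4 classes when either inhibitor was added to anti-PD-L1.

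The genes whose log2(CPM + 5) ran most like each member's were found over 28 sums of 1 class in 1 library with at least 20 cells, among 6283 genes of at least 20 CPM on average. These sums share libraries, so the correlations are descriptions. For Tcf7 they were Parp8 (Pearson r = 0.938), Pde7a (0.906) and Ppm1h (0.895), and for Lef1 Auts2 (0.882), Trdc (0.864), which gated the gamma-delta T cells, and Sidt1 (0.856). Bach2 was followed by Slc9a9 (0.941), Bcl2 (0.941), which protects lymphocytes from cell death, and Foxp1 (0.935), a factor of naive T cells. Eomes ran with Runx3 (0.938), Ccl5 (0.935) and Mctp2 (0.923), and Tbx21 with Cldnd2, Efhd2 (0.923) and Cers6 (0.917). Tox ran with Ehd1 (0.955), Map2 (0.953) and Adamts6 (0.951), and Batf with Gpm6b (0.933), Arl6ip1 (0.931) and Tff1 (0.918). The values were lower for Id2, with Ccl4 (0.870), Tmsb4x (0.849) and Arpc1b (0.829), and for Prdm1, with Hgs (0.868), Raph1 (0.839) and Serp1 (0.833). No member was among the 3 most alike of another.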

How the data were processed

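The deposited files held UMI counts per gene and cell for 6 libraries made with the Chromium 3' kit v3.1. The authors made these counts with Cell Ranger, version 7.0.0 per the file headers and their methods and 3.1.0 per the submitters' processing notes, on mm10, and deposited them without normalization. Cells with at least 250 genes and at most 5% mitochondrial UMIs were kept and gated on UMIs of marker genes, with fewer than 2 UMIs of other lineages. T cells held 2 or more UMIs of Cd3d, Cd3e and Cd3g. Then Cd8a or Cd8b1, Cd4, Foxp3 or Trdc set the 4 T cell classes. Each class lacked the markers of the others, except that Treg cells could hold Cd4 and gamma-delta T cells could hold Cd8a. NK cells held 2 or more UMIs of Ncr1, Klrb1c and Klre1 and at most 1 of Cd3d, Cd3e and Cd3g. Of the gated cells, 581 resembled simulated doublets and were kept. The members and gene lists were chosen with earlier results of these data known. UMIs were summed per class and library and compared with edgeR 4.0.16 (TMM, quasi-likelihood test, filterByExpr, library as a block, sums of at least 10 cells), with SEs derived from its F statistic and genes of the gates left out of the counts of all genes. DESeq2 1.42.0 was an alternative. The fit was tested on simulated data. Other named genes were those of the fixed lists and the 3 most alike to each member. Intervals and limits cover counting error only. Some items are not reported here. Gene spans came from GENCODE M21. Libraries held 61859753 to 73885214 UMIs.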

Additional observations from a re-analysis of the deposited data

Results flagged for a closer look

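For 3 members, the ratio to control passed 1.5-fold upward in 1 cell class and downward in another under the same treatment. Each ratio compares 2 single libraries, and the difference between classes was not tested. With 2FF, the log2 ratio of Tcf7 was -1.16 in CD8 T cells and 0.82 in NK cells, the second from 67 UMIs against 6. The counting interval of the NK ratio, 0.821 to 5.31 in plain CPM, included 1. With anti-PD-L1, the log2 ratio of Bach2 was -0.82 in CD8 T cells and 0.68 in CD4 T cells. With 2FF, the log2 ratio of Tbx21 was 0.91 in CD4 T cells and 0.94 in Treg cells, and -0.62 in NK cells, where the control held 26 cells.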

How the results depend on the processing

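The number of members called between classes stayed within 1.5 times of the main count in all 42 fits that left out 1 library, with 4 to 7 members for CD8 T against CD4 T cells, 7 to 8 for Treg against CD4 T cells, 7 to 9 for gamma-delta T and 8 to 9 for NK against CD8 T cells, and 7 to 8, 7 to 8 and 5 to 6 for the divisions by Havcr2, Tcf7 and dividing cells. It changed by more for CD8 T against CD4 T cells without the library block (3 in place of 5), and after thinning to 1000 UMIs for Havcr2 (4 in place of 8) and for dividing cells (3 in place of 6). The class gates stayed on the full counts. The divisions of CD8 T cells were made again on the thinned counts, so that fewer cells carried a UMI of the dividing gene. Thinning left 6 called in place of 9 for gamma-delta T against CD8 T cells and 6 in place of 8 for Treg against CD4 T cells. Fold changes of members between classes were compared over all alternatives that kept every library and gave a test result. They stayed on their side of the threshold with their direction in 607 cases, lost the call in 25, gained it in 5 and changed sign in 6. Thinned counts gave no result for Eomes in Treg against CD4 T cells or Id3 by Havcr2. The same held for Tcf7, Eomes and Prdm1 in gamma-delta T against CD8 T cells. For Havcr2, Tbx21 was 0.022 without the filter, 0.0024 with 1 or more CD3 UMIs, 0.19 after thinning and -0.039 to 0.049 when leaving out 1 library, Tox was 0.12 after thinning and -0.089 to 0.0034 when leaving out 1 library, and Eomes was 0.034 after thinning. Prdm1 in dividing cells was 0.030 after thinning, and Id2 between CD8 T and CD4 T cells was -0.018 to 0.093 when leaving out 1 library. Between treatments, pairs of member and class were counted over 4 classes. For 2FF against control, 14 of 34 pairs were past 1.5-fold, and 9 pairs after thinning. In the main setting 14.5% to 27% of all genes were past it, depending on the class. For 2DG plus anti-PD-L1 against anti-PD-L1, 2 of 34 pairs were past it, against 4.06% to 12.3% of all genes. This count was 1 for 1 or more CD3 UMIs, 1 for 3 or more CD3 UMIs and 4 after thinning. Ratios of members between treatments left the counting interval of the reported ratio in 63 cases and stayed in it in 1611. Shares of cells with a UMI moved in all 60 cases counted. The cause of these changes was not tested. The limits are 1 mouse per treatment, few lymphocytes in the control library and the UMIs per cell. Most CD8 T cells held no Tcf7 UMI, and the part of depth in this was not tested.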

Other observations

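Within single CD8 T cells, members were also counted by whether a cell held a UMI of each. A Lef1 UMI was found in 43.4% to 78.9% of CD8 T cells with a Tcf7 UMI and in 18.7% to 29.0% of those without, the higher share lying with Tcf7 in each of the 6 libraries. An Id2 UMI was found in 63.2% to 81.2% of cells with Tcf7 and in 88.0% to 96.1% of those without. Tox was detected in 67.6% to 87.0% of cells with a Tcf7 UMI, against 78.0% to 88.7% without, so most cells with Tcf7 in each library also held Tox RNA. A Tbx21 UMI was found in 57.4% to 71.5% of cells with Eomes and 56.9% to 67.7% of cells without. These shares depend on the depth of the cells and were not tested.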
